A study of Mus musculus with 2 samples.

Results

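Filaggrin, filaggrin-2, hornerin, repetin, trichohyalin and cornulin are encoded by Flg, Flg2, Hrnr, Rptn, Tchh and Crnn, the 6 genes described here out of 21938 coding genes of GENCODE release M21 (mouse assembly GRCm38, called mm10). The genes were taken by name, with earlier values of the same peak list known, so their peaks are described and not tested. The data are sites of H1t, a linker histone of male germ cells that binds nucleosomes where DNA enters and leaves them. Mouse spermatogenic cells came from the testes of ICR animals, an outbred stock, at an age of 6 weeks, and chromatin was fragmented with an enzyme and precipitated with a rabbit polyclonal antibody against H1T made in the submitters' laboratory. The series has 2 libraries, this immunoprecipitate and an input with no antibody, from animals of the same stock and age. The peak list of the immunoprecipitate was analysed, the input was not analysed here, and pooling of animals is not given in the sources used here. With 1 library there is no replicate, and read depth is unknown, so no value below carries an error or an interval. A peak list measures no transcript, so the labelled cell type could not be checked against markers.

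Fused S100 genes carry the code for a calcium-binding S100 domain ahead of a long run of tandem repeats. The first exon is non-coding in the usual gene structure, a short exon begins the S100 domain, and the last large exon finishes it and holds the repeats. The proteins are made in stratified epithelia. Profilaggrin is stored in granules of the upper epidermis and cut into filaggrin units that bundle keratin filaments, and trichohyalin does related work in the inner root sheath of hair. All of them are studied mainly in skin, hair and other squamous epithelia.

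All 6 genes lie on the plus strand of chromosome 3 in the order Crnn, Flg2, Flg, Hrnr, Rptn and Tchh. In every one of them the first coding exon measured 138 bp, and it was followed by the large exon. The annotation breaks the large exon of Flg into 8 coding pieces and that of Flg2 into 5, and both genes carry the GENCODE tag for an error in the reference genome. The longest annotated piece of Flg is therefore only 1008 bp. For that reason the values below refer to the coding span of the large exon, from its first to its last coding base. This span was 19986 bp in Flg2 (chr3:93200805-93220790), 13826 bp in Flg (chr3:93279381-93293206), 10095 bp in Hrnr (chr3:93322595-93332689), 4659 bp in Tchh (chr3:93443393-93448051), 3216 bp in Rptn (chr3:93395500-93398715) and 1422 bp in Crnn (chr3:93148047-93149468). Annotated coding pieces made up 34.4% of the span in Flg2, 47.3% in Flg and 100% in the other 4 genes. The choice of span was made after the annotation was seen.

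The sequences under the strongest peaks are shown beside a stretch of the repeated exon without a peak. The following 150-base stretches of the plus strand, 5′ to 3′, lie at the centre of the highest-scoring peak of each covered exon, and at the centre of the span in Hrnr, which has no peak. They were read from the GENCODE transcript sequences of GRCm38. Capitals mark CG dinucleotides.
Flg, chr3:93288026-93288175: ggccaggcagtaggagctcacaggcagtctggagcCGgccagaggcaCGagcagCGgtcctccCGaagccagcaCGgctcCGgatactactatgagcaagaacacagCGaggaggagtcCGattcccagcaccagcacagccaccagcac
Flg2, chr3:93213721-93213870: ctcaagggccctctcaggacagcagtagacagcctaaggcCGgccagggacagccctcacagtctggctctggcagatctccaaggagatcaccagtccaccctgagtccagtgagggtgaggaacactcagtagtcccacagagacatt
Tchh, chr3:93447023-93447172: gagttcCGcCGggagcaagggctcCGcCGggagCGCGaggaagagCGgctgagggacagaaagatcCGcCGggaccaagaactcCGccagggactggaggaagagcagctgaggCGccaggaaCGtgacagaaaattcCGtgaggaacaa
Hrnr, chr3:93327568-93327717: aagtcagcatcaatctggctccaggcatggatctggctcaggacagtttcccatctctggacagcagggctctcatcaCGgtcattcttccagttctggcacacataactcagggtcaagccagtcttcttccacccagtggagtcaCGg
These stretches held 8 CG dinucleotides in Flg, 1 in Flg2, 13 in Tchh and 2 in Hrnr. Their GC content was 64%, 58.7%, 63.3% and 54%. Each stretch holds repeated sequence. Their 50-base words (50-mers) were present within their own exon in a median of 38 copies in Flg2, 8 in Hrnr, 2 in Flg and 2 in Tchh. The highest copy numbers were 55 in Flg2, 16 in Flg, 8 in Hrnr and 3 in Tchh.

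The most frequent 50-mer of each repeat is a part of the sequence that the exon multiplies. It is given at its first copy, with CG dinucleotides in capitals.
Flg2, chr3:93203941-93203990: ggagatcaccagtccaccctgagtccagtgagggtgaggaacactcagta
Flg, chr3:93280377-93280426: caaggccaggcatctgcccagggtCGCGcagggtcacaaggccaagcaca
Hrnr, chr3:93323713-93323762: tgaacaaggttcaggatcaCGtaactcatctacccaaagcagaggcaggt
Tchh, chr3:93445700-93445749: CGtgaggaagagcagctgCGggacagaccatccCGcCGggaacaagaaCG
This 50-mer occurred 55 times in Flg2, 17 times in Flg, 16 times in Hrnr and 5 times in Tchh. The copies recurred most often at 234 bp in Flg2, 750 bp in Flg, 513 bp in Hrnr and 60 bp in Tchh. Of these copies, 26 of 55 lay in a peak in Flg2, 12 of 17 in Flg, 5 of 5 in Tchh and 0 of 16 in Hrnr.

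H1t peaks were found in Flg, Flg2 and Tchh and not in Hrnr, Rptn or Crnn. A peak overlapped the coding span in 3 of 6 genes, where 30.2% of all 725 coding segments of at least 2 kb overlapped a peak by at least 1 bp. By whole gene bodies the count was also 3 of 6, where 37.6% of the 8716 coding genes in the same range of length overlapped a peak. Peaks took 68.1% of the span of Flg (9418 bp), 37.2% of that of Flg2 (7432 bp) and 32.6% of that of Tchh (1521 bp). The median over the 6 spans was 16.3% inside peaks, beside 0% over the 725 segments. Measured over the longest annotated coding segment alone, the same 3 genes had a peak, the shares were 69.6%, 3.84% and 32.6%, and the median was 1.92%. In Flg2 this was a partial overlap. With the peak midpoint required inside the segment, 2 of 6 genes had a peak. The covered share of Flg was among the values that led to the choice of these genes, so these counts are a description.

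**Figure D1:**
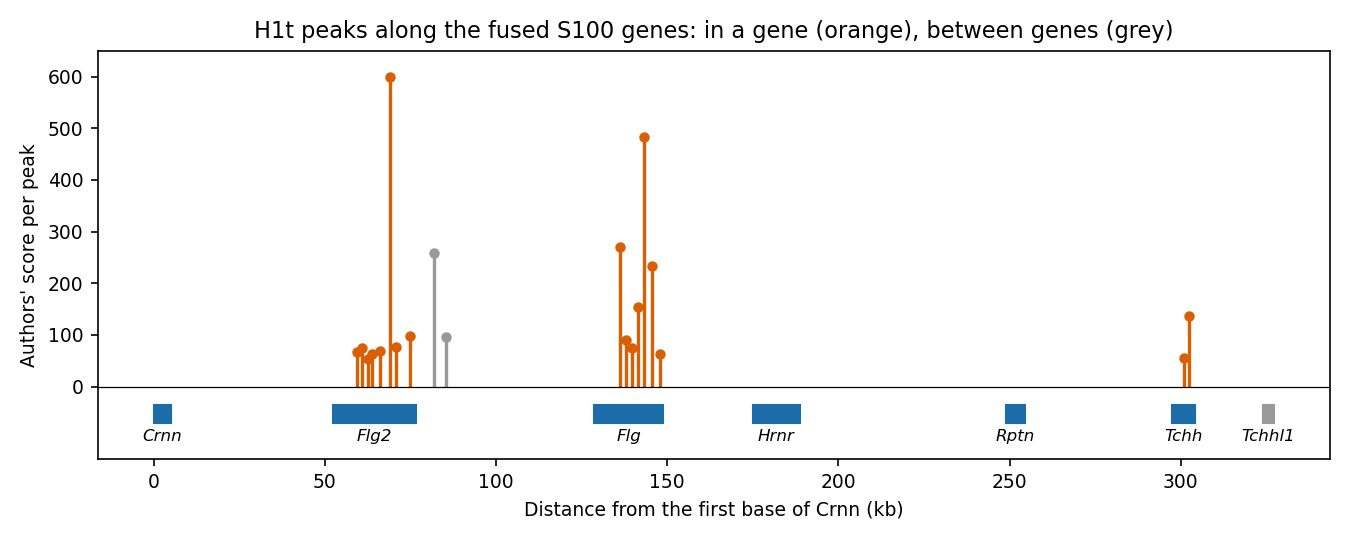
Each stem is a peak, placed by its midpoint as distance from the first base of Crnn (kb, x axis) with the authors' score on the y axis; orange stems lie in a gene, grey stems between genes, and boxes below mark the gene bodies. Peaks form 3 groups at Flg2, Flg and Tchh, with a pair of peaks downstream of Flg2, and none lies at Crnn, Hrnr, Rptn or the neighbouring gene Tchhl1.

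Flg (ENSMUSG00000102439.4, chr3:93273523-93293686), the profilaggrin gene, carried 7 peaks with a median score of 153.33, where the whole list runs from 50 to 3100 with a median of 73.99. Scores were assigned by the authors and serve here only to rank peaks within their list. The strongest peak of Flg, chr3:93286763-93289438, was 2676 bp wide with a score of 482.89, and 0.374% of all peaks scored as high or higher. The next were chr3:93279981-93282253 (2273 bp, score 269.15) at the start of the exon and chr3:93289540-93291254 (1715 bp, score 234.19). The other 4 peaks were 634 to 768 bp wide, with scores of 62.77 to 153.33. Only 35 bp of coding sequence followed the last peak. The peaks thus reached from the first repeats nearly to the last coding base, in 7 separate stretches.

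Flg2 (ENSMUSG00000049133.7, chr3:93197278-93221391), whose product also takes part in cornification of the epidermis, carried 8 peaks with a median score of 71.86, and 4 of the 8 scored at or above the median of the list. The strongest was chr3:93212377-93215213, 2837 bp wide with a score of 598.79, which 0.171% of all peaks reached. The other 7 were 549 to 898 bp wide with scores of 52.82 to 97.43. At scores of at least 100 the covered share of Flg2 was 14.2%, from this peak alone, while Flg kept 53.8%.

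Tchh (ENSMUSG00000052415.5, chr3:93442330-93449077), the trichohyalin gene, carried 2 peaks. They were chr3:93445608-93446135 (528 bp, score 54.92) and chr3:93446601-93447593 (993 bp, score 136.13). They lay in the middle and later parts of the exon, 2215 bp after its first base at the earliest, and 458 bp of coding sequence followed them. Both peaks also lie within the body of Gm37245, a lincRNA gene of 158.892 kb on the minus strand, and neither touched its exons. The body of Gm37245 also spans Hrnr and Rptn.

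All 17 peaks in the 6 genes lay entirely inside the coding span of a large exon. Outside these spans, no base of any of the 6 genes was inside a peak, which includes the first coding exons, the introns and the untranslated parts. The fragmentary coding annotation changes how these peaks would be classed. By midpoint, 2 of the 8 peaks of Flg2 and 5 of the 7 of Flg fell in an annotated coding piece, and the other 6 and 2 fell between pieces. Both kinds of sequence were covered. In Flg2 it was 34.3% of the pieces and 38.7% of the sequence between them, and in Flg 71.6% and 64.96%.

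**Figure D2:**
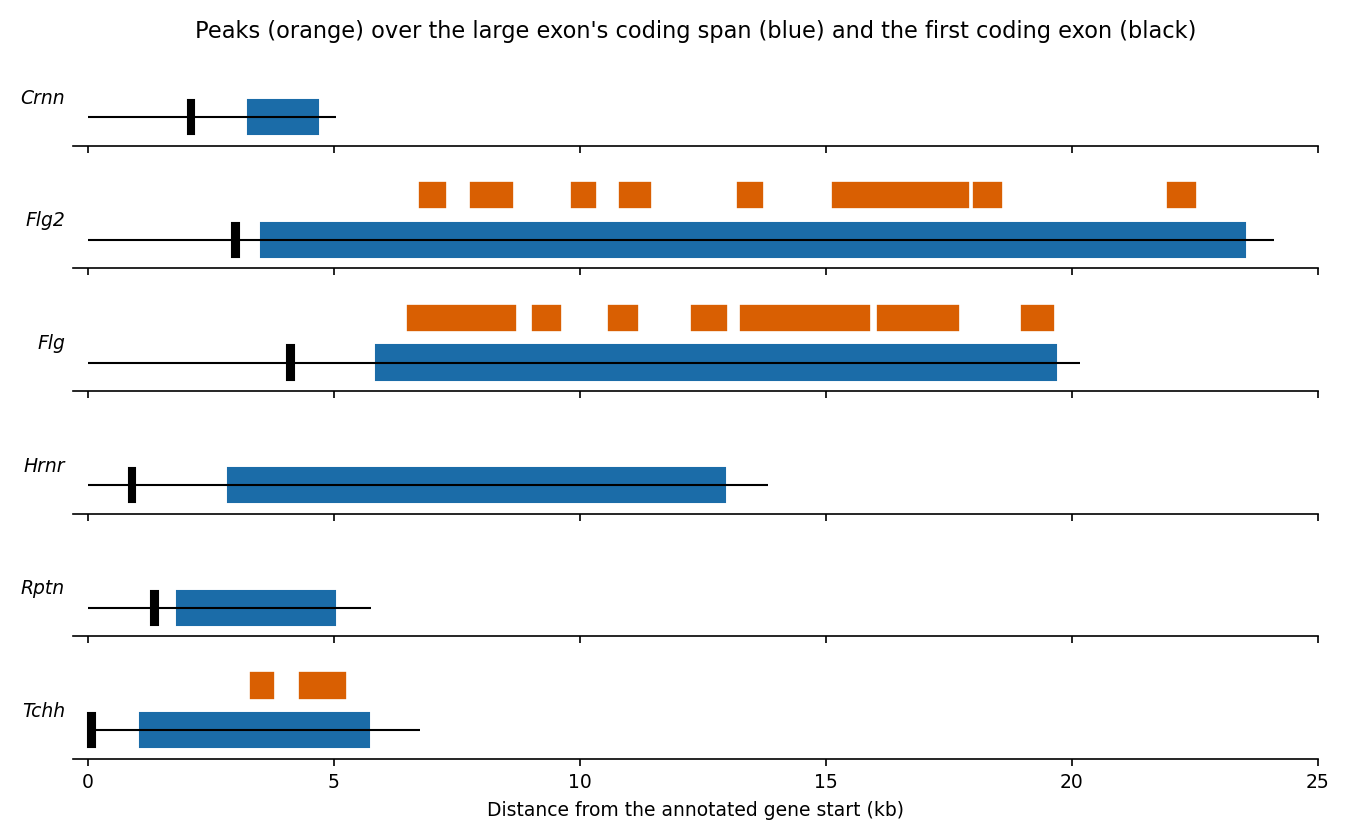
For each gene, the line is the annotated gene body from its start (x axis, kb), the black box the first coding exon, the blue box the coding span of the large exon, and orange boxes the peaks. All 17 peaks sit over the blue spans of Flg2, Flg and Tchh, and the adjoining peaks of Flg2 and of Flg that nearly touch are separate in the list.

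No start site in the group carried a peak. A midpoint lay within 1 kb of the 5′ end of the outermost coding transcript in 0 of 6 genes, where 23.2% of all coding genes had one. This point is the first base of the gene in Crnn, Hrnr, Rptn and Tchh, but lies inside the gene, at or near the first coding base, in Flg and Flg2. From it the nearest peak edge was 2.413 kb away in Flg, 3.278 kb in Tchh, 3.771 kb in Flg2, 8.716 kb in Crnn, 26.578 kb in Hrnr and 51.909 kb in Rptn. In the RefSeq promoters of the same assembly, from 250 bases before to 50 after the start, GC content ran from 28.7% in Tchh to 48% in Hrnr, against a median of 52.7% over 32851 promoters. Peaks touched 172 of the 10890 promoters with a GC content no higher than that of Hrnr (1.58%), and 13.9% of all promoters. An empty promoter was the common case in both sets, and a part of base composition in the empty starts was not tested. In Flg and Flg2 the RefSeq promoter lies upstream of the first base of the annotated coding models, and it held no peak in either gene.

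The 5 spacers between neighbouring genes, 228.666 kb in all, held 2 peaks, or 0.875 per 100 kb against 3.25 on chromosome 3 as a whole. The spacer value was 1.82 without the bodies of other annotated genes, and 0.437 when only peaks with scores of at least 100 were counted. The body of Gm37245 takes in the spacers from Hrnr to Rptn and from Rptn to Tchh whole. The gene bodies themselves held 22.5 per 100 kb. Both spacer peaks lay between Flg2 and Flg and overlapped 0 annotated genes. They were chr3:93225683-93227754 (2072 bp, score 259.17), 4.292 kb past the end of Flg2, and chr3:93229753-93230619 (867 bp, score 96.76). The spacers from Crnn to Flg2, Flg to Hrnr, Hrnr to Rptn and Rptn to Tchh, of 26.062 to 60.128 kb, held none. An interval of such a length between neighbouring coding genes held a peak in 53.7% of 3315 cases. From the end of Flg to the middle of Tchh there was a stretch of 152.436 kb without a peak, which contains Hrnr and Rptn whole. Peak-free stretches of this length or longer numbered 132 of 5103 on chromosome 3, so the stretch is long but not rare. The base composition of the spacers was not computed here.

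The covered and the empty exons of the group separated by GC content. The spans of Flg (65.1%), Tchh (60.7%) and Flg2 (56.9%) were the 3 highest in GC content and the 3 with peaks. Those of Hrnr (49.99%), Crnn (49.7%) and Rptn (48.6%) were lower and empty. CG dinucleotides left Flg2 and Hrnr close together. They numbered 7.49 per 100 bp in Tchh, 5.58 in Flg and 1.69 in Flg2, while the empty exon of Hrnr had 1.52, Rptn 0.653 and Crnn 0.422. Relative to the number that base composition alone would give, CG was less frequent in Flg2 (ratio 0.209) than in the empty exon of Hrnr (0.243), and the ratio was 0.850 in Tchh and 0.527 in Flg. Tchhl1, the trichohyalin-like gene next to Tchh and the other fused S100 gene of the cluster, had a GC content of 46.4% over 1773 bp and 0 peaks.

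Each covered exon was then set beside other coding segments of at least 2 kb within 2.5 percentage points of its GC content. Near Flg, 96.8% of 31 segments had a peak, with a median covered share of 60.8%, and 19 of the 31 were covered less than Flg. Near Tchh, 84.6% of 78 segments had a peak, with a median of 36.9%, and 34 were covered less. Near Flg2, 52.7% of 148 had a peak, with a median of 12.9%, and 124 were covered less. Flg and Tchh thus lay near the middle of their GC neighbours, and Flg2 in the upper part of its own. Near the empty exons peaks were uncommon, at 16.6% of 157 segments for Hrnr, 13.8% of 159 for Crnn, 6.96% of 158 for Rptn and 0.73% of 137 for Tchhl1. Comparing with GC neighbours was chosen knowing that GC-rich exons carry more peaks in this list, and it is no independent support for that relation.

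**Figure D3:**
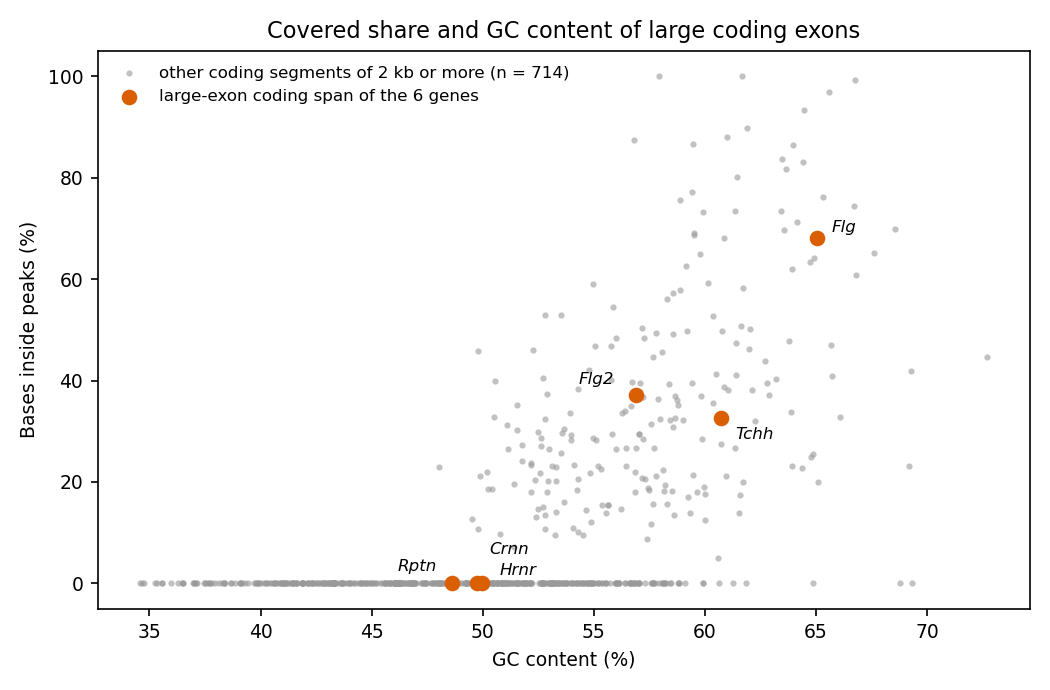
GC content (x axis, %) and share of bases inside peaks (y axis, %) for the coding spans of the 6 genes (orange) and for 714 other coding segments of at least 2 kb (grey). Flg, Flg2 and Tchh lie among grey points of similar GC content, and Hrnr, Crnn and Rptn lie at 0 with most segments near a GC content of 50%.

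Along the exons, the peaks lay on the repeats of Flg and Flg2. The repeat array was taken as the stretch from the first to the last 50-mer that has another copy in the same exon. In Flg2 it was 16160 bp long, began 2800 bp into the exon, had a GC content of 59.6% and was 45.6% covered. The 3826 bp of Flg2 around it had a GC content of 45.7%, and 62 bp of them were covered. The first peak began 376 bp after the start of the array. In Flg the array was 12788 bp long, began 782 bp into the exon, had a GC content of 66.5% and was 70.5% covered. Of the 1038 bp around it (47.3% GC), 403 bp were covered, by peaks that ran past its ends. All peak midpoints lay in the array, 8 of 8 in Flg2 and 7 of 7 in Flg. The array makes up most of the span, 16160 of 19986 bp in Flg2 and 12788 of 13826 bp in Flg. Midpoints spread evenly over the span would therefore mostly lie in it too. The sequence before the first peak measured 3176 bp in Flg2 and 600 bp in Flg, with GC contents of 49.4% and 39.7%, against 58.3% and 66.2% from the first peak on. Tchh differed, since its 2215 bp before the first peak had a GC content of 59.9%, close to the 61.5% from there on.

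Hrnr (ENSMUSG00000041991.18, chr3:93319749-93333570) encodes hornerin, a cornified envelope protein with filaggrin-like repeats, and its exon was as rich in repeats but held no peak. Of its 50-mers 76.6% recurred, compared with 83.1% in Flg and 68.0% in Flg2. Over all recurring 50-mers of Hrnr, 64.9% of the neighbouring copies lay 1044 bp apart, while its most frequent 50-mer recurred most often at 513 bp. Its array of 7914 bp had a GC content of 52.1% and 0% coverage, and 97.8% of the 50-mers in the array recurred. A part of repeats or of GC content in the lack of peaks was not tested. Rptn (ENSMUSG00000041984.2, chr3:93393699-93399442) encodes repetin, a precursor of the cornified envelope, and Crnn (ENSMUSG00000078657.6, chr3:93144787-93149819) encodes cornulin, a protein of squamous epithelia such as the oesophagus. Only 7.10% of the 50-mers recurred in Rptn, 0% in Crnn and 12.6% in Tchh. These low shares moved with the word length, to 20.6% in Rptn and 16.9% in Tchh for 36-mers, and to 0% and 3.05% for 100-mers. None of the 50-mers of the 6 spans was found in an annotated transcript of another gene.

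Within the arrays, repeated sequence was not uniformly the covered sequence. In Flg2, 47.7% of the 50-mers with 1 copy and 47.9% of those with 5 or more copies lay in peaks, with 37.6% for 2 to 4 copies. The strongest Flg2 peak had 69.1% recurring 50-mers, while 3 weaker ones, with scores of 52.82 to 68.7, had 100%. In Flg, 40.4% of the 50-mers with 1 copy lay in peaks, 53.9% of those with 2 to 4 copies and 75.7% of those with 5 or more. In Tchh, 27.8% of the 50-mers with 1 copy and 79.6% of those with 2 to 4 did. The sources used here do not say how reads with several matching positions were treated. Its part in the peaks of these exons was not tested.

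**Figure D4:**
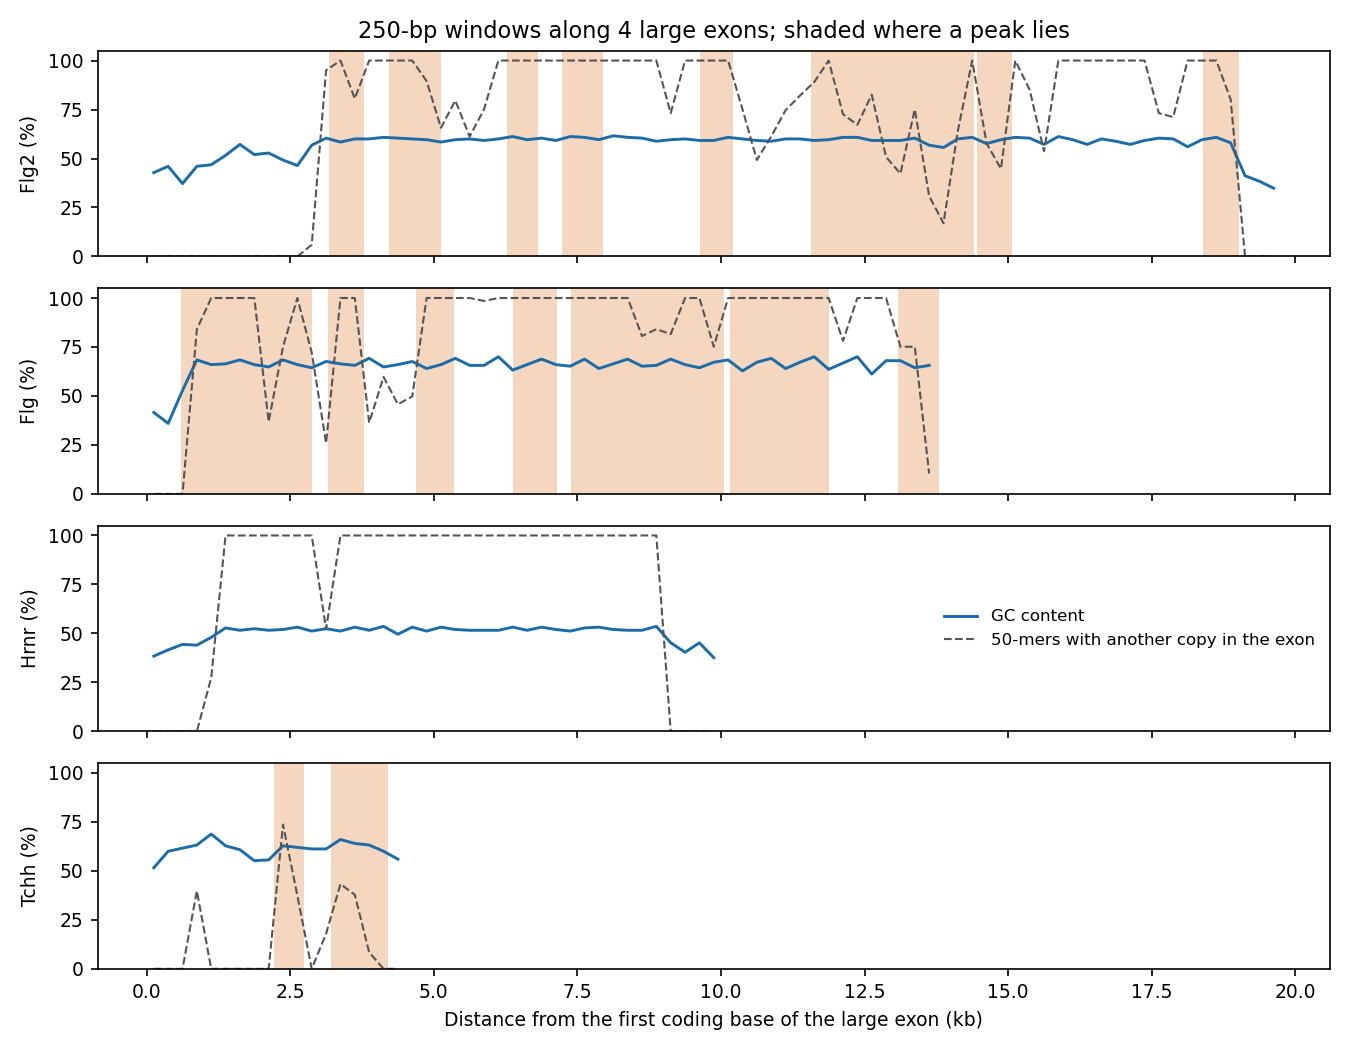
GC content (solid line) and share of 50-mers with another copy in the same exon (dashed line), both in %, in 250-bp windows along the large exons of Flg2, Flg, Hrnr and Tchh (x axis, kb from the first coding base of the exon); shading marks peaks. The shaded parts of Flg2 and Flg begin near where the repeats begin, and Hrnr has repeats near 100%, a GC content of 53.6% at most and no shading.

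In windows of 250 bp, those with a GC content below 55% were nearly free of peaks, but most of them came from exons with no peak at all. The 30 windows under 50% over the 6 spans had a mean covered share of 0.293%, the 42 windows from 50 to 55% one of 1.43%, and a peak touched 1 window in each class. From 55 to 60% the mean was 41.2% over 39 windows, from 60 to 65% it was 48.4% over 56, and at 65% or more it was 70.2% over 42. The windows of Hrnr ended at 53.6% GC, and those of Crnn at 51.6%. Rptn had 2 windows between 55 and 60%, both empty. GC-rich sequence was also empty in Tchh, where 6 of 12 windows from 60 to 65% and 1 of 2 at 65% or more were touched by a peak, and the window highest in GC content (68.8%, centred 1.125 kb into the exon) was not. Inside Flg2 coverage did not rise further above 55%, with 46.8% covered in 34 windows from 55 to 60% and 42.9% in 32 windows from 60 to 65%. Windows of an array repeat the same sequence and are not independent, and windows of the top class come mostly from Flg (40 of 42). Of the 42 windows from 50 to 55%, 30 come from Hrnr, 4 from Rptn and 3 from Crnn, the genes without peaks. The covered exons gave 3 in Flg2 (0% covered), 1 in Flg (60%) and 1 in Tchh (0%). Below 50% they gave 10 in Flg2 (0.88% covered) and 2 in Flg (0%).

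Each member was set beside the exons most like it in covered share and GC content. The members themselves were left out of the segments compared, and the coding segment of Tchhl1 is shorter than 2 kb. All neighbours therefore had to come from other families. The 3 nearest were chosen by Euclidean distance over these 2 percentages among 714 segments in the 1 library. For Flg they were Irs2, an insulin receptor substrate gene (69.8% covered, 63.6% GC), Cic (71.2%, 64.1%) and Skor2 (69.8%, 68.6%). For Flg2 they were Hivep3 (36.8% covered), Zfhx3 (36.4%) and Celsr2 (36.9%). For Tchh they were Fam83h (32.0%), Crybg2 (32.1%) and Irs1 (32.7%). None of the 3 nearest to Flg or to Flg2 had a recurring 50-mer, but under 1% of 50-mers recurred in 662 of the 714 segments. Repeats were not part of the distance. The nearest exons to Hrnr, Crnn and Rptn were all at 0%, as most exons of their GC content were. Covered share was part of the distance, so the matches in covered share follow from the choice.

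Among the other genes of the epidermal cluster, those with a peak on coding sequence were GC-rich envelope genes. Many envelope genes of similar GC content had none. The cornified envelope list has small proline-rich, late cornified envelope and related genes around the fused genes on chromosome 3. Of its 43 genes, 9 had a coding base in a peak (20.9%), against 29.4% of all coding genes, a share not matched for coding length. The 9 were Lor, which encodes loricrin, the main envelope protein (42.4% of its coding sequence, score 52.46), Crct1, Sprr1b, Lce1a1, Lce1e, Lce1i, Lce1j, Lce1l and Lce3d. Coverage of their coding sequence was 100% in 6 of them, and their scores stayed between 52.46 and 88.85. By gene bodies 13 of the 43 had a peak, where 48.6% of all coding genes of any length did. Sprr2a1, Sprr2a2, Sprr2a3 and Sprr3 had peaks off coding sequence only, with best scores of 53.21 in Sprr3 to 147.58 in Sprr2a2. The longest coding segments of the 9 genes had a median GC content of 63.1%, against 59.2% in the 34 without a coding peak. The ranges overlapped (61.2 to 72.9% and 47.7 to 65.02%). Many of the 34 lay within the range of the covered genes, such as Lce1m (65.02%) and Sprr1a (64.1%). How far the related Lce genes share sequence was not measured here. Whether each peak belongs to the Lce gene on which it is placed was not tested. Ivl, which encodes the envelope protein involucrin, and Smcp, a gene of sperm mitochondria in the same cluster, had 0 peaks.

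The single S100 genes encode the calcium-binding domain without the repeats. None of the 16 had a coding base in a peak, where 29.4% of all coding genes did, and S100a3 alone had a peak in its body (score 60.47). The 16 have only 237 to 480 bp of coding sequence, and the share over all coding genes is not matched for length. The median GC content of their longest coding segments was 48.7%. Among 36 genes of filaggrin processing and its keratin partners, 8 had a coding peak (22.2%). These were the envelope plakin genes Evpl (29.8% of coding sequence, best score 105.34) and Ppl (14.9%), the keratin genes Krt2 (29.2%), Krt5 (17.4%) and Krt25 (31.2%), the protease gene St14 (22.8%), and Padi1 (4.03%) and Padi3 (12.1%), which encode enzymes that convert arginine to citrulline in filaggrin and trichohyalin. Casp14 and Asprv1, proteases of filaggrin breakdown and processing, and the keratin genes Krt1 and Krt10 had 0 peaks.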

How the data were processed

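The submitters' processing notes name Bowtie 1.1.2 and the build mm10. The deposited list holds 76546 peaks with positions, names and scores, and 76434 of them lie on chromosomes 1 to 19, X and Y. The score is the authors' own value, in a file whose peak names have the form that MACS writes. The sources used here do not state the peak caller's settings, any use of the input, or the treatment of multiply matching reads.

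Positions are counted from 1. A peak overlapped a feature with at least 1 bp, and start-site and spacer counts used midpoints. The start site is the 5′ end of the outermost coding transcript. Background segments are the longest merged coding segment of each coding gene, if at least 2 kb. Recurring sequence is the share of 50-mers (36-mers and 100-mers as alternatives) with another copy in the same span, on the same strand. The members and lists were chosen with earlier results of these data known. Named genes were the 6 members, Tchhl1, the 3 exons nearest to each member, the 10 most covered and the 10 nearest to Flg in length (a selection is printed), and list genes with a coding peak. The large exon was first defined as the longest coding segment. For Flg and Flg2, where the annotation is in pieces, this misses most of the exon, so the coding span was added, and both are printed. Repeat arrays and windows were also chosen after the data were seen. No test was run, since there is 1 library. Coverage and repeat functions were tested on simulated data. Python 3.11.15, numpy 2.4.6 and matplotlib 3.10.9 were used.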

Additional observations from a re-analysis of the deposited data

How the results depend on the processing

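By the longest annotated coding segment, members with a peak fell from 3 to 1 with peaks at or above the median score and to 1 with scores of at least 100, and peaks with a midpoint there fell from 3 to 1 under both. The peaks on those short segments score 62.77 in Flg and 66.18 in Flg2, below the median of the list. Over the whole coding span these settings left 3 of 6 genes with a peak, and the peaks numbered 17, or 11 at or above the median score and 6 at scores of at least 100. With the midpoint required inside the longest segment, 2 members had a peak, since the peak of Flg2 has its midpoint outside. The median covered share was 1.92% by the longest segment and 0% with either score threshold, with peaks cut to 100 bp on each side of the midpoint, or without Flg. Over the span it was 16.3%, 10.7% at or above the median score, 7.10% at scores of at least 100, 4.02% with cut peaks and 0% without Flg. With 3 of 6 genes at 0, this median rests on the least covered gene with peaks. Peaks per 100 kb of spacer were 0.875, 0.437 at scores of at least 100, and 1.82 without the bodies of other annotated genes. Start-site counts stayed at 0 with a narrower and a wider window, with both score thresholds and with basic transcripts. The span settings were added after the data were seen. No paired analysis was possible because there is 1 library. Read depth is unknown and the input was not analysed here, so weak and strong peaks differ here by score alone.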

Other observations

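Other large coding exons with tandem repeats showed the same division by GC content. Outside the 6 genes, 21 of the 714 coding segments of at least 2 kb with a sequence at hand had 10% or more recurring 50-mers. Of the 4 with a GC content of 55 to 60%, all had a peak. Among them were Eppk1, which encodes the cytoskeletal linker epiplakin (29.9% recurring, 45.6% covered, best score 1082.27), Gm9573 (13.9% covered) and Duxf3 (100% covered), a gene of a family with close copies. These repeated exons were named after their values were seen. Of the 9 with 50 to 55%, only Fam186a had a peak (12.1% covered), and the mucin genes Muc5ac, Muc5b and Muc6 and the lubricin gene Prg4 had 0. The 8 below 50%, with Ahnak among them (16623 bp, 47.4% GC), had 0 as well. Segments with under 1% recurring 50-mers had a peak in 1.09% of 274 below 50% GC, 31.1% of 190 from 50 to 55%, 60% of 130 from 55 to 60% and 91.2% of 68 at 60% or more.

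Of the 10 coding segments outside the 6 genes that are nearest in length to the span of Flg, 9310 to 17106 bp, Ahnak2 (12687 bp, 70.5% covered, 4 peaks, no sequence at hand for its GC content) and Eppk1 had peaks. The other 8, Ttn, Muc16 and Ahnak among them, had 0% covered at GC contents of 36.5 to 49.7%.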
